A study of Mus musculus with 6 samples.

Results

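The cells described here are myeloid cells of the colon from transplanted mice with graft-versus-host disease (GVHD) and from transplanted controls, 4020 cells of 60605 barcodes in the series. GVHD is an attack of donor T cells on recipient tissue. Controls received bone marrow alone (BM), and GVHD mice received bone marrow together with spleen cells, which bring mature T cells. The series describes both libraries as sorted donor-derived CD11b+ CD64+ macrophages of the colon, whereas the protocol of the samples names a sort for live cells only. T cells, epithelial cells and neutrophils were present in the libraries, so the sort was not taken as given. Strain, age, sex, conditioning, time after transplant and the number of mice per library do not appear in the sources used here. Each side was 1 droplet library of 10x single-cell RNA, so no test was possible and no p-value is given. Brackets hold exact 95% intervals that cover counting error only. The macrophage libraries of wild-type (WT) and IL-34-deficient (IL34KO) transplant recipients appear only as levels beside those of GVHD and BM. The sources used here do not say whether those recipients were given spleen cells.

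Members were chosen by measured values. A barcode needed 500 or more detected genes, and mitochondrial genes could take no more than 10% of its molecules, counted as unique molecular identifiers (UMIs). It had to hold at least 5 UMIs of Csf1r, Lyz2 and Cd68 together, at most 1 UMI of the T-cell genes Cd3d, Cd3e, Cd3g, Trac, Trbc1 and Trbc2, and no UMI of the epithelial gene Epcam. BM barcodes that were also listed in GVHD were left out. This left 1961 BM cells, 77.02% of the 2546 BM barcodes that passed the other filters, and 2059 GVHD cells, 76.3% of 2698. The 3 gate genes summed to a median of 71.0 UMIs per BM cell and 157 per GVHD cell, far from the threshold. At the threshold, 24 BM and 11 GVHD cells held exactly 5 UMIs and were inside, and 28 and 12 held 4 and were outside. More cells were lost to Epcam in GVHD (246) than in BM (52), and 75 and 49 were lost to the T-cell limit.

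Monocytes that carry CCR2 enter the colon from blood throughout life and mature there. They lose Ly6C, gain MHC class II and become macrophages that clear dying cells, tolerate microbes and depend on CSF1R, the receptor for CSF1 and IL-34. In inflamed gut this maturation is known to be interrupted, and cells with nitric oxide synthase, interleukins and chemokines accumulate. In GVHD of the gut, donor T cells release interferon-γ and GM-CSF, both of which act on such cells.

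BM and GVHD had 2502 barcodes in common, 42.6% of those of BM and 60.0% of those of GVHD, while every other pair of libraries shared between 5 and 75. In 2486 of them the GVHD copy was the deeper one, and the BM copy held a median of 8.60% of its UMIs, with quartiles of 8.41% and 8.79%. The other 16 were deeper in BM. In 13 of those the BM copy held 57548 to 131870 UMIs and the GVHD copy 0.707% to 0.963% as many. Of the 16, 5 passed the gate as GVHD cells and stay in.

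**Figure D1:**
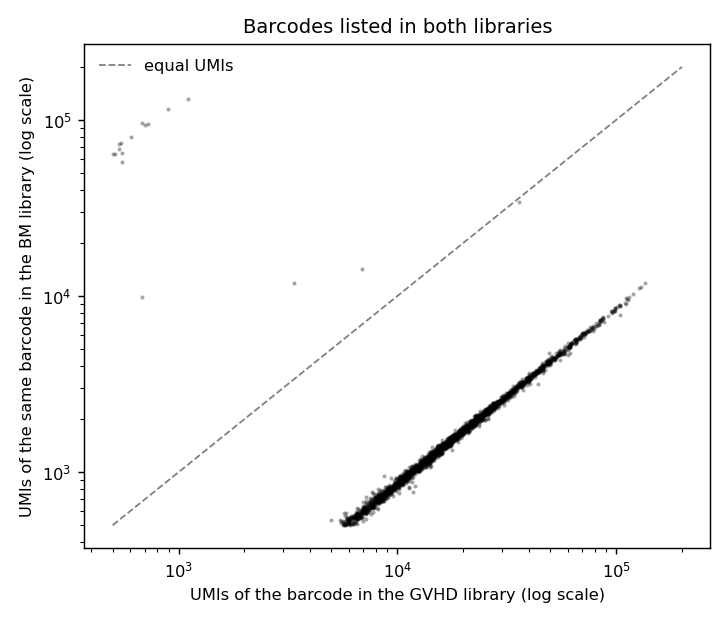
UMIs of each of the 2502 shared barcodes in the GVHD library (x axis, log scale) and in the BM library (y axis, log scale), 1 point per barcode, with a dashed line at equal UMIs. Nearly all points lie on a narrow band below the line, where the BM copy holds a median of 8.60% of the GVHD UMIs, and 16 lie above it.

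Nos2, which encodes inducible nitric oxide synthase, stood at 69.0 counts per 1000000 UMIs (CPM) in the 1748 dropped BM cells that otherwise passed the gate. It stood at 0.513 CPM in the BM cells kept and at 85.6 CPM in the 1819 GVHD cells with a barcode listed in BM. The 240 GVHD cells with no such barcode had 58.8 CPM and were shallow, at a median of 3869 UMIs. For Arg1, arginase 1, the 4 values in the same order were 193, 5.48, 228 and 200.2 CPM. P3h2, a collagen-modifying enzyme, had 68 UMIs there (14.4 CPM), against 81.9 CPM in the cells kept and 0 UMIs in GVHD. In what follows the GVHD side holds barcodes of both kinds, and values with the shared barcodes kept on the BM side, or dropped on both sides, stand in the closing section.

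BM cells had a median of 13030 UMIs and 3426 genes, GVHD cells 16443 UMIs and 3954 genes, and the sums held 29215092 and 42744199 UMIs. Mitochondrial genes took 2.76% of BM and 3.30% of GVHD UMIs, ribosomal protein genes 9.89% and 14.5%, and the nuclear RNA Malat1 1.97% and 0.843%. Levels are sums over the gated cells, so a change per cell and a change in the mix of cells cannot be told apart in them. The gate genes themselves, which chose the cells, were at 501 against 779 CPM for Csf1r (GVHD first in every pair joined by against), 9865 against 6299.5 CPM for Lyz2 and 222 against 352 CPM for Cd68. Markers that the gate did not use were present too. Fcgr1, which encodes CD64, was at 95.5 CPM in GVHD and 102 in BM, 1.07-fold (1.02 to 1.12) lower. Itgam, which encodes CD11b, was at 321 against 233 CPM. Xist, made by female cells, had at most 1 UMI in either library, and Ddx3y, on the Y chromosome, stood at 68.0 CPM in GVHD and 133 in BM.

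Other cell types left traces. Of the T-cell list all 12 markers were detected in both libraries and they summed to 174 CPM in GVHD and 136 in BM, of which Il7r, a receptor also made by gut myeloid cells, gave 166 against 129 CPM. The B and plasma cell list (8 of 9 detected in each, Igkc at 0 in GVHD) summed to 126 CPM in BM and 20.8 in GVHD. Fibroblast markers (7 of 7 in both) summed to 232 CPM in BM and 190.3 in GVHD, with Gsn, a gene that macrophages also use, the largest part. Epithelial markers (9 and 10 of 11, Epcam at 0 by the gate, Reg3g also at 0 in BM) summed to 30.5 CPM in BM and 63.3 in GVHD. At least 3 UMIs of them, at full depth, were in 2.29% of gated BM cells and 16.3% of gated GVHD cells. Neutrophil markers (9 of 9 in both) summed to 97.3 CPM in BM and 147 in GVHD, and conventional dendritic cell markers (10 and 9 of 10, Cd209a at 0 in GVHD) to 109 CPM in BM and 109 in GVHD. Markers of plasmacytoid dendritic cells (5 of 5 in both) summed to 609 CPM in BM and 211 in GVHD, mostly from Bst2 (149 against 334 CPM) and Tcf4 (56.9 against 253 CPM), which macrophages also express. Their defining marker Siglech had 549 UMIs in BM and 2 in GVHD. Endothelial markers summed to 55.8 CPM in BM and 20.2 in GVHD and smooth muscle markers to 16.6 CPM in BM and 4.91 in GVHD, while mast cell, eosinophil, glial and erythroid markers stayed at or below 5.20 CPM in both. The part of these cells in the results below was examined only for dendritic cells and neutrophils, on part of their markers. Left out were cells with at least 2 UMIs of the dendritic cell genes Flt3, Zbtb46, Xcr1, Clec9a, Ccr7 and Fscn1 together. Cells with at least 2 UMIs of the neutrophil genes Cxcr2, Retnlg, Ly6g, Ngp and Camp together were left out too. UMIs were counted at full depth, and 1838 BM and 1608 GVHD cells were left. The part of depth in this loss was not tested.

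Of 9841 genes that reached 5 CPM in either library, 646 were at least 2-fold higher in GVHD (6.56%) and 982 at least 2-fold lower (9.98%), with a median log2 ratio over all of −0.01. These shares are the background for every list below. The ratio went with gene span. Protein-coding genes that cover over 100 kb of the genome had a median log2 ratio of −0.32 (1278 genes, 22.8% at least 2-fold lower in GVHD), and genes under 5 kb one of 0.22 (923 genes, 8.13% lower). Genes over 100 kb took 14.8% of BM UMIs and 11.1% of GVHD UMIs. The part of span, of Malat1 and of ribosomal protein genes in the folds was not tested, and which 10x kit, 3′ or 5′, made each library was not stated in the labels.

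**Figure D2:**
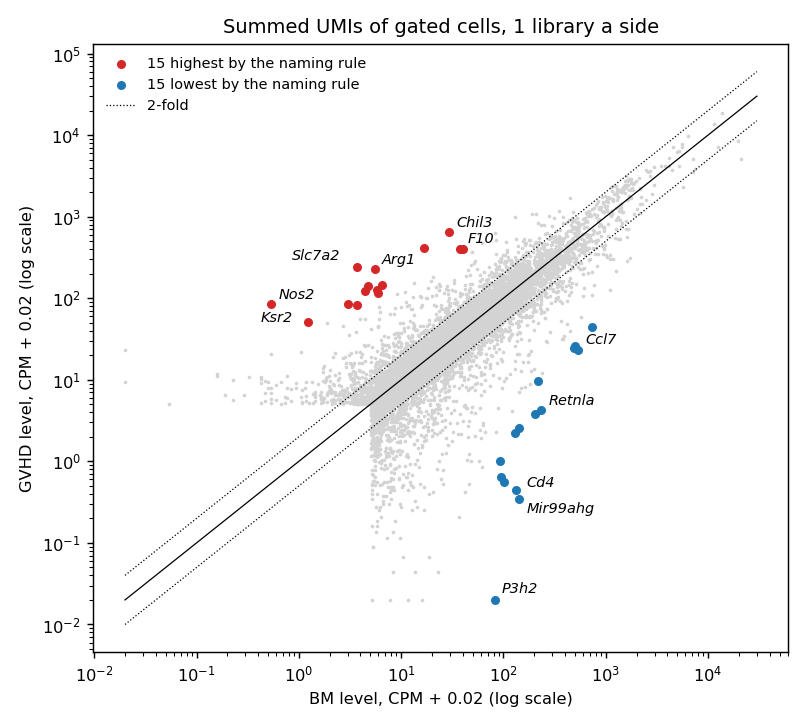
Level of each of the 9841 genes measured in BM (x axis) and GVHD (y axis), in CPM + 0.02 on log scales, with the 15 highest (red) and 15 lowest (blue) genes of the naming rule. The solid line marks equal levels and the dotted lines 2-fold, and the coloured genes lie far outside them at both ends.

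Genes of arginine use were among the highest in GVHD over BM. Nitric oxide synthase and arginase compete for this amino acid, and macrophages are often described by which of these enzymes they make. Nos2 (chromosome 11, 78920787 to 78960254 of mm10) had 3635 UMIs in GVHD and 15 in BM, 85.0 against 0.513 CPM, a ratio of 166 (100.3 to 296). Slc7a2, which carries arginine into the cell, was at 239 CPM in GVHD and 3.70 in BM, 64.8-fold (53.6 to 79.0) higher. Arg1 (chromosome 10, 24915221 to 24927484), which splits the same amino acid, was at 228 CPM in GVHD and 5.48 in BM, 41.6-fold (35.6 to 48.9) higher. Ass1, which rebuilds arginine from citrulline, was 8.33-fold (7.27 to 9.58) higher. The Nos2 ratio rests on few BM UMIs, and its interval is wide. Over the whole arginine and polyamine list the pattern was mixed, with 6 of 15 measured members at least 2-fold higher, 1 at least 2-fold lower and a median log2 ratio of 0.72. Of those, 6 of 15 stand against the background of 6.56% over all genes. Sat1, which begins polyamine breakdown, was 2.13-fold (2.09 to 2.17) lower. With the shared barcodes kept in BM the log2 ratios were smaller, at 3.08 for Nos2, 2.88 for Slc7a2 and 2.85 for Arg1, in place of 7.37, 6.02 and 5.38. In the WT and IL34KO libraries Nos2 stood at 302 CPM in WT and 497 in IL34KO, Slc7a2 at 579 CPM in WT and 563 in IL34KO and Arg1 at 143 CPM in WT and 176 in IL34KO.

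Coagulation factors were also among the 15 highest, among them F7 of the extrinsic pathway, which tissue damage starts. F7, factor VII, was at 124 CPM in GVHD and 4.38 in BM, 28.3-fold (23.7 to 34.0) higher, and F10, factor X, at 402 CPM in GVHD and 37.7 in BM, 10.7-fold (10.1 to 11.4). Procr, the endothelial protein C receptor, was 7.32-fold (6.70 to 8.01) higher. The coagulation list had 5 of 15 measured members at least 2-fold higher, 4 at least 2-fold lower and a median log2 ratio of 0.61. Its members went both ways: F13a1, the clot-linking transglutaminase subunit, was 8.79-fold (8.28 to 9.33) lower, and Serpinb6a 8.48-fold (7.67 to 9.39) lower, while Plaur, the urokinase receptor, was at 561 against 551 CPM. Inhba, which forms activin A, was at 142 CPM in GVHD and 4.69 in BM, 30.4-fold (25.6 to 36.2) higher. Sdc1, syndecan 1, was 21.7-fold (18.6 to 25.5) higher, Cd24a 22.3-fold (19.3 to 25.9), Flt1, a receptor for VEGF, 22.8-fold (18.8 to 27.9), and Mmp8, a collagenase, 28.3-fold (22.9 to 35.4). Ksr2, a scaffold of the MAP kinase pathway, had 35 UMIs in BM and 2189 in GVHD. AA467197, whose mouse symbol carries no function, went from 16.7 CPM in BM to 418 in GVHD. Ccl17, a chemokine for CCR4, was 19.2-fold (16.5 to 22.5) higher. Its log2 ratio moved from 4.27 to 5.74 without the cells left out for dendritic cell or neutrophil genes.

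At the other end stood genes that were low or nearly absent in GVHD. Mir99ahg, a long non-coding RNA gene (chromosome 16, 77236317 to 77773427), had 4189 UMIs in BM and 14 in GVHD, 438-fold (261 to 801) lower. P3h2 (chromosome 16, 25959288 to 26105784) had 2394 UMIs in BM and 0 in GVHD. Against a floor of 3 counts over the GVHD library it was at least 1168-fold lower. Cd4, a co-receptor of T cells that some gut macrophages also carry, was 313-fold (198 to 529) lower (0.421 against 132 CPM), while the T-cell receptor genes were held near 0 by the gate. Plxna4, a semaphorin receptor, was 187-fold (125 to 296) lower, Ptprm, an adhesive phosphatase, 55.0-fold (45.5 to 67.1), Adgrl3, an adhesion receptor, 54.1-fold (46.2 to 63.6) and Tanc2, a scaffold protein, 20.3-fold (19.1 to 21.7). The adhesion and guidance list as a whole had 0 of 15 measured members at least 2-fold higher, 10 at least 2-fold lower and a median log2 ratio of −1.71. This list was not separated from the trend with gene span. H2-Q6, a class Ib MHC gene of a multigene family, was 94.5-fold (69.8 to 131) lower. Its relatives can share reads, so its value is uncertain. The gap was not confined to the gated cells: H2-Q6 had a UMI in 48.4% of thinned T cells in BM and 0.935% in GVHD. Ms4a7, a membrane protein of mature macrophages, was at 44.1 CPM in GVHD and 733 in BM, 16.6-fold (15.8 to 17.4) lower.

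**Figure D3:**
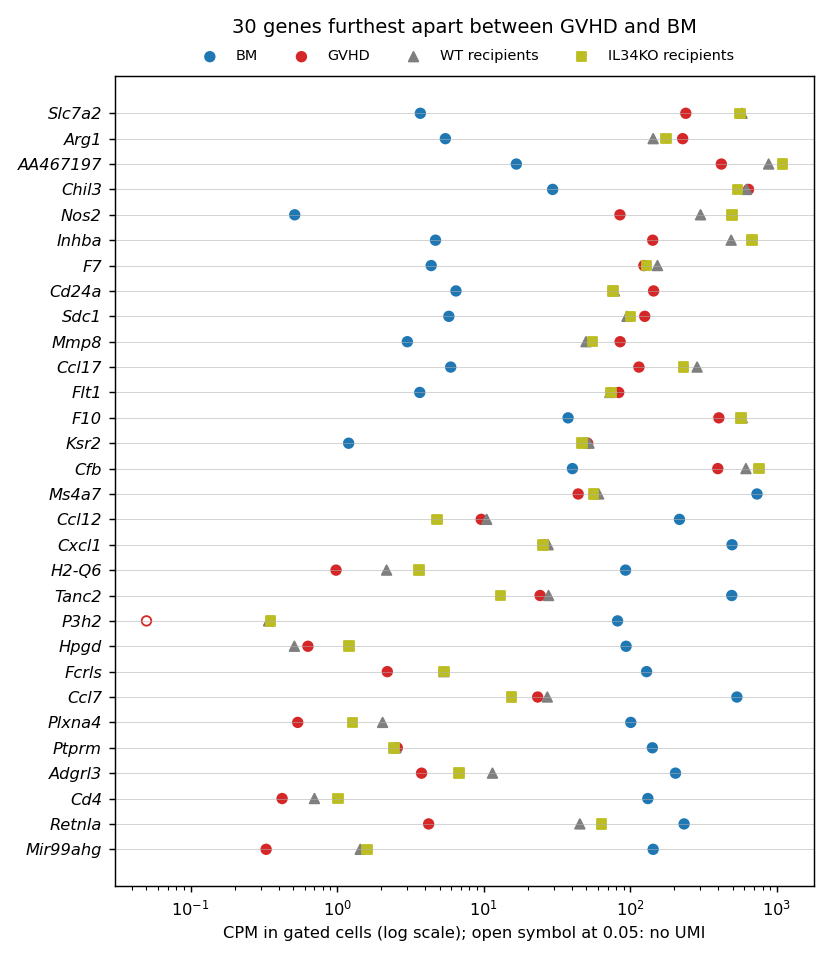
Level in CPM (x axis, log scale) of the 15 highest and 15 lowest genes in gated cells of the BM, GVHD, WT and IL34KO macrophage libraries, 1 symbol per library. P3h2 has an open symbol because it had no UMI in GVHD. For Mir99ahg, WT and IL34KO stood at 1.44 and 1.60 CPM, beside 143 in BM and 0.328 in GVHD.

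In the other 2 macrophage libraries Cd4 stood at 0.700 CPM in WT and 1.01 in IL34KO, Plxna4 at 2.04 CPM in WT and 1.27 in IL34KO and Tanc2 at 27.7 CPM in WT and 13.1 in IL34KO. Retnla, a secreted product of alternatively activated macrophages, was at 45.3 CPM in WT and 63.6 in IL34KO, with 233 in BM and 4.21 in GVHD, 55.3-fold (47.7 to 64.5) lower. Inhba was at 488 CPM in WT and 677 in IL34KO, Cd24a at 78.0 CPM in WT and 76.1 in IL34KO and Mmp8 at 49.9 CPM in WT and 55.4 in IL34KO. Neutrophil markers summed to 2016 CPM in WT and 3805 in IL34KO. These libraries would share BM as a control, so only their levels are given.

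Genes of the interferon-γ response were higher in GVHD as a group. Their list had 18 of 26 measured members at least 2-fold higher, 0 at least 2-fold lower and a median log2 ratio of 1.22. Interferon-γ is known to act on genes through the GAS and ISRE motifs. Cxcl9, which attracts T cells through CXCR3, was at 982 CPM in GVHD and 131 in BM, 7.49-fold (7.25 to 7.74) higher. Gbp2, a guanylate-binding protein of cell-autonomous defence, was at 622 CPM in GVHD and 83.2 in BM, 7.48-fold (7.17 to 7.80). Serpina3g was 6.38-fold (5.89 to 6.92) higher and Iigp1, an immunity-related GTPase, 4.95-fold (4.67 to 5.25). Cd274, which encodes PD-L1, was at 533 against 359 CPM. The type I interferon list did not share this direction, with 1 of 21 measured members at least 2-fold higher, 5 at least 2-fold lower and a median log2 ratio of −0.50. Ifit3 was 4.798-fold (4.15 to 5.57) lower, Oas2 2.81-fold (2.44 to 3.24) and Ifit2 2.32-fold (2.13 to 2.53), whereas Ifi44 was 2.34-fold (1.96 to 2.80) higher. Isg15 was at 273 against 201 CPM. The log2 ratio of Ifi44 was −0.43, the other direction, when only the 240 GVHD cells with no barcode in BM were used, where it had 4 UMIs.

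Promoters of both interferon groups are shown because the groups had medians of opposite sign while their motifs overlapped. Promoters of 300 bases (RefSeq, GRCm38.p6, 250 bases before to 50 after the start) were matched by symbol for 19 of the 26 measured interferon-γ genes (22 promoters) and 16 of 21 type I genes (20 promoters). On either strand, the ISRE letters, GAAA followed by any 2 bases and GAAA, stood in 10 (45.5%) and 10 (50%) of these promoters, and in 3.44% of all 32851. The GAS letters TTCNNNGAA stood in 8 (36.4%), 3 (15%) and 8.30%. The 2 motifs can overlap. A match describes letters and not binding. Below are the promoters of Gbp2 and Serpina3g, higher in GVHD, and of Ifit3, lower in GVHD, each 5′ to 3′ on the gene's own strand with the matches in capitals. They were picked because they hold a match: Gbp2 and Ifit3 carry ISRE letters and Serpina3g GAS letters. The promoters of Cxcl9 and Irf7 hold neither motif in this window. Ifit2, lower in GVHD, has a promoter with GAS letters and another with neither motif.
Gbp2, chr3:142620413-142620712, plus strand: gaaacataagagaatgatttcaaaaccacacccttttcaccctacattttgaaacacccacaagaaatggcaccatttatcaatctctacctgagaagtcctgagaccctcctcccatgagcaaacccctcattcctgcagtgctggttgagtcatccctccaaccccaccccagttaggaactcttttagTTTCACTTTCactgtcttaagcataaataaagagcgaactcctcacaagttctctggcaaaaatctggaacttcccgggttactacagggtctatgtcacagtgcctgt
Serpina3g, chr12:104235897-104236196, plus strand: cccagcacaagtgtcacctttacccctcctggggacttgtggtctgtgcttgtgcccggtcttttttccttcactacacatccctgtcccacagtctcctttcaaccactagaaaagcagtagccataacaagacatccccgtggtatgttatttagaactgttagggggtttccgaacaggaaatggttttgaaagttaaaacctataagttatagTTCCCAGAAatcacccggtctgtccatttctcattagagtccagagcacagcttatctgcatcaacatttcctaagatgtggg
Ifit3, chr19:34583279-34583578, plus strand: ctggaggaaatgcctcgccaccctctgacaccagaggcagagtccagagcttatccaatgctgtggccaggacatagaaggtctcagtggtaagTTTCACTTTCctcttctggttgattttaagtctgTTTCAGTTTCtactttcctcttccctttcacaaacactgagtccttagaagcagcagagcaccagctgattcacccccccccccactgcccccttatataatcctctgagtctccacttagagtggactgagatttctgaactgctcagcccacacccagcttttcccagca

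Chemokines call other cells into tissue. The list of those for monocytes and neutrophils had 2 of 14 measured members at least 2-fold higher, 9 at least 2-fold lower and a median log2 ratio of −1.92. Ccl7, a ligand of CCR2, was at 23.3 CPM in GVHD and 534 in BM, 22.9-fold (21.5 to 24.4) lower, Ccl12, another CCR2 ligand, 22.5-fold (20.4 to 24.97) lower and Ccl2 at 109.9 against 732 CPM. Cxcl1, which attracts neutrophils, was at 25.9 CPM in GVHD and 495 in BM, 19.2-fold (18.0 to 20.4) lower, and Pf4, a platelet chemokine that tissue macrophages also make, at 127 CPM in GVHD and 1109.6 in BM. Against this, Ccl6 was 3.82-fold (3.75 to 3.90) higher. Chemokines for T cells had 3 of 8 measured members at least 2-fold higher, 2 at least 2-fold lower and a median log2 ratio of 0.83, with Cxcl9 and Ccl17 given above, Ccl5 at 241 against 85.7 CPM and Cxcl10 at 568 against 295 CPM. In the same list Ccl3 and Ccl4 were 4.63-fold (4.50 to 4.77) and 5.91-fold (5.77 to 6.04) lower. Leaving out cells with at least 2 UMIs of cell-cycle genes, counted at full depth, kept 995 of 2059 GVHD cells and 1488 of 1961 BM cells. In the cells kept the median of the myeloid list was −1.13. The part of depth in this move was not tested.

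Resident macrophage genes were lower in GVHD. The list had 0 of 25 measured members at least 2-fold higher, 17 at least 2-fold lower and a median log2 ratio of −1.98. Lyve1, a hyaluronan receptor of perivascular macrophages, was at 0.187 against 37.0 CPM, from 8 and 1082 UMIs. Cd163, which takes up haemoglobin, was 73.5-fold (52.9 to 105) lower. Gas6, a bridge to dying cells, was 29.7-fold (25.5 to 34.7) lower, Folr2 21.6-fold (18.0 to 26.2) and Cx3cr1, the fractalkine receptor, 11.9-fold (11.2 to 12.6). Adgre1, which encodes F4/80, was 3.39-fold (3.29 to 3.49) lower. Not every gene of clearance followed. Mertk, an engulfment receptor for which Gas6 is a ligand, was at 87.9 against 132 CPM, Axl at 297 against 220.5 CPM and Timd4, which binds phosphatidylserine, at 68.8 against 56.5 CPM. The iron and haem list had 2 of 16 measured members at least 2-fold higher, 6 at least 2-fold lower and a median log2 ratio of −0.36. Slc40a1, the iron exporter ferroportin, was 24.9-fold (20.4 to 30.7) lower, Spic, a transcription factor of iron-recycling macrophages, 89.3-fold (58.7 to 143), and Cp, ceruloplasmin, 5.36-fold (4.89 to 5.88). Hp, haptoglobin, was 7.64-fold (6.70 to 8.74) higher.

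Among transcription factors 2 of 30 were at least 2-fold higher and 9 lower (median −0.53). Bhlhe40 was 4.05-fold (3.92 to 4.19) higher and Hif1a, the oxygen-sensitive factor, 2.95-fold (2.85 to 3.04). Pparg, a nuclear receptor for lipids, was 8.71-fold (7.78 to 9.76) lower, Mef2c 7.36-fold (6.98 to 7.76) and Tcf4 4.44-fold (4.24 to 4.65). Maf (128 against 371 CPM), which keeps macrophages mature, was also past 2-fold. Klf4 (748 against 497 CPM) and Runx3 (268 against 311 CPM) were within 2-fold.

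Monocyte genes were higher in GVHD. Their list had 11 of 18 measured members at least 2-fold higher, 0 at least 2-fold lower and a median log2 ratio of 1.48. Chil3, a chitinase-like protein of fresh monocytes, was at 642 CPM in GVHD and 29.5 in BM, 21.7-fold (20.3 to 23.3) higher. Fn1, fibronectin, was 6.14-fold (5.89 to 6.402) higher, and Ccr2, the receptor for entry from blood, 3.32-fold (3.19 to 3.45). Ly6c2 was at 81.1 against 47.0 CPM, within 2-fold. Ms4a4c was the lowest member at 32.2 against 55.0 CPM. The alternative activation list had 6 of 16 measured members at least 2-fold higher, 6 at least 2-fold lower and a median log2 ratio of 0.23. Ear2, an eosinophil-type ribonuclease, was 11.8-fold (10.6 to 13.1) higher and Pdcd1lg2, which encodes PD-L2, 6.96-fold (6.22 to 7.80), while Fcrls was 58.8-fold (47.9 to 72.9) lower and Hpgd, which breaks down prostaglandins, 148-fold (102 to 225).

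**Figure D4:**
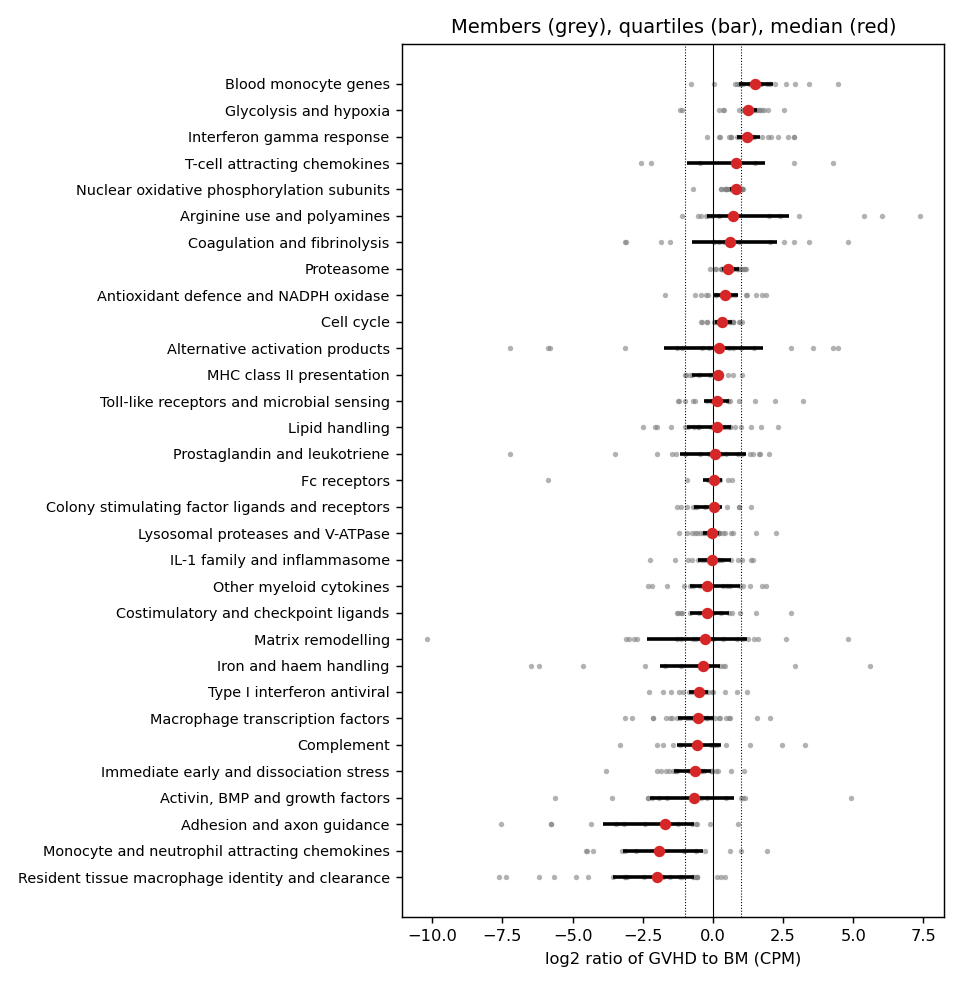
Log2 ratio of GVHD to BM (x axis) for the measured members of 31 gene lists, 1 grey point per gene, with the quartiles as a bar and the median in red. Dotted lines mark 2-fold. The lists of resident macrophage genes, myeloid chemokines and adhesion have medians of −1.98, −1.92 and −1.71, and those of monocyte genes, glycolysis and interferon-γ 1.48, 1.25 and 1.22.

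The prostaglandin and leukotriene list had 6 of 19 measured members at least 2-fold higher, 6 at least 2-fold lower and a median log2 ratio of 0.06. Ptgs2, the inducible cyclooxygenase, was at 793 CPM in GVHD and 248 in BM, 3.20-fold (3.12 to 3.28) higher, and Ptgs1, the constitutive form, at 108 against 216 CPM. Hpgds, which makes prostaglandin D2, was at 34.4 CPM in GVHD and 389 in BM, 11.3-fold (10.7 to 12.0) lower. On the leukotriene side Alox5ap was 2.67-fold (2.58 to 2.77) higher, Lta4h 2.07-fold (1.88 to 2.27) and Ltb4r1, a receptor for leukotriene B4, 3.97-fold (3.49 to 4.53), whereas Alox5 itself was at 10.7 against 26.8 CPM.

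The IL-1 and inflammasome list had 3 of 17 measured members at least 2-fold higher, 2 at least 2-fold lower and a median log2 ratio of −0.05: Pycard, the inflammasome adaptor, was 2.69-fold (2.57 to 2.80) higher, Il18bp 2.59-fold (2.36 to 2.85) higher and Il18 2.56-fold (2.27 to 2.88) lower, and Il1b was at 1691 against 1752 CPM. Other cytokines had 4 of 17 measured members at least 2-fold higher, 4 at least 2-fold lower and a median log2 ratio of −0.20. Il6 was 3.74-fold (3.30 to 4.25) higher, Vegfa 2.10-fold (2.02 to 2.18) higher and Il10, the anti-inflammatory cytokine on which gut macrophages rely, 5.02-fold (4.69 to 5.37) lower. Tnf was at 141 against 233 CPM. Il12b was low in both, at 1.38 against 6.16 CPM. Costimulatory and checkpoint ligands had 2 of 17 measured members at least 2-fold higher, 4 at least 2-fold lower and a median log2 ratio of −0.21, with Cd86 2.43-fold (2.38 to 2.48) lower, Vsir 2.21-fold (2.12 to 2.30) lower and Nectin2 2.88-fold (2.43 to 3.42) higher.

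Complement, matrix and growth-factor genes held members at both ends. The complement list had 3 of 15 measured members at least 2-fold higher, 5 at least 2-fold lower and a median log2 ratio of −0.57. Cfb, factor B of the alternative pathway, was at 396 CPM in GVHD and 40.3 in BM, 9.82-fold (9.25 to 10.4) higher and C3 5.54-fold (5.25 to 5.84) higher, while C2 of the classical pathway was 10.0-fold (7.65 to 13.3) lower and C5ar1, an anaphylatoxin receptor, 3.47-fold (3.34 to 3.59). The matrix list had 6 of 18 measured members at least 2-fold higher, 7 at least 2-fold lower and a median log2 ratio of −0.29, with Mmp13, a collagenase, 8.59-fold (8.20 to 9.01) lower and Mmp2 7.10-fold (6.28 to 8.04) lower. The growth-factor list had 4 of 15 measured members at least 2-fold higher, 7 at least 2-fold lower and a median log2 ratio of −0.68. Igf1 was 12.0-fold (10.7 to 13.5) lower, Pdgfa 4.96-fold (4.54 to 5.42), Pdgfc 4.51-fold (4.19 to 4.86) and Bmp2, known for signals from gut macrophages to nerve cells, 49.5-fold (32.5 to 79.5). Of the fibroblast markers, 4 of 5 measured were at least 2-fold lower in GVHD, with Col3a1 at 4.26 against 32.5 CPM and Dcn at 3.88 against 30.6 CPM, and Gsn was not, at 178 against 141 CPM. Gated cells with at least 3 UMIs of these markers, Gsn included, were 33.0% in BM and 50.2% in GVHD. This share was counted at full depth, at medians of 13030 UMIs in BM and 16443 in GVHD. The part of depth and of Gsn in it was not tested. The part of fibroblast RNA in the lower Sparc (3.18 against 20.7 CPM) was not tested.

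Glycolysis and hypoxia had 19 of 25 measured members at least 2-fold higher, 2 at least 2-fold lower and a median log2 ratio of 1.25. Slc16a3, which exports lactate, was 5.80-fold (5.29 to 6.36) higher, Hilpda, a lipid droplet protein induced by low oxygen, 3.88-fold (3.78 to 3.99), Pgam1 3.53-fold (3.40 to 3.67) and Pgk1 3.38-fold (3.24 to 3.51). Pfkfb3 went the other way at 2.17-fold (2.06 to 2.28) lower. So did Slc2a3, the lowest member, with a log2 ratio of −1.19 from 7.74 CPM in BM. Nuclear oxidative phosphorylation genes had 6 of 35 measured members at least 2-fold higher, 0 at least 2-fold lower and a median log2 ratio of 0.83, with Cox8a 2.09-fold (2.05 to 2.14) and Atp5l 2.07-fold (2.02 to 2.12) higher. The proteasome list had 4 of 24 measured members at least 2-fold higher, 0 at least 2-fold lower and a median log2 ratio of 0.52, with the immunoproteasome subunits Psmb9 2.26-fold (2.17 to 2.35), Psmb8 2.21-fold (2.15 to 2.27) and Psmb10 2.17-fold (2.07 to 2.29) higher. These lists were not separated from the trend with gene span.

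Antioxidant and NADPH oxidase genes had 5 of 20 measured members at least 2-fold higher, 1 at least 2-fold lower and a median log2 ratio of 0.42: Txn1, thioredoxin, was 3.73-fold (3.65 to 3.82) higher, Prdx5 3.36-fold (3.29 to 3.43), Slc7a11, the cystine importer, 2.89-fold (2.81 to 2.98) and Sod2 2.30-fold (2.23 to 2.36), while Hmox1, haem oxygenase, was 3.30-fold (3.19 to 3.42) lower. Lipid-handling genes had 4 of 20 measured members at least 2-fold higher, 5 at least 2-fold lower and a median log2 ratio of 0.13. Spp1, osteopontin, was 5.02-fold (4.67 to 5.41) higher and Fabp5 3.30-fold (3.20 to 3.40) higher, and Apoe, the most abundant of them, fell from 21157 CPM in BM to 5079 in GVHD, 4.17-fold (4.15 to 4.19) lower. Lysosomal genes had 2 of 25 measured members at least 2-fold higher, 1 at least 2-fold lower and a median log2 ratio of −0.04, with Atp6v0d2 4.73-fold (4.19 to 5.35) higher, Ctsk 2.92-fold (2.36 to 3.63) higher and Lgmn 2.28-fold (2.25 to 2.32) lower.

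Some groups had medians near 0. MHC class II had 1 of 13 measured members at least 2-fold higher, 0 at least 2-fold lower and a median log2 ratio of 0.19, Ifi30, a thiol reductase of antigen processing, being the member past 2-fold, 2.05-fold (2.01 to 2.09). The class II members were spread, with quartiles of −0.74 and 0.29. The lowest, H2-Eb1, had a log2 ratio of −0.99, just short of 2-fold lower. Fc receptors had 0 of 8 measured members at least 2-fold higher, 1 at least 2-fold lower and a median log2 ratio of 0.04. Colony stimulating factor genes had 1 of 15 measured members at least 2-fold higher, 2 at least 2-fold lower and a median log2 ratio of 0.04: Cish, which is induced by STAT5, was 2.56-fold (2.36 to 2.77) higher, Csf2rb and Csf2rb2, the shared chain of the GM-CSF receptor and its relative, were 1.88-fold (1.84 to 1.93) and 1.91-fold (1.82 to 2.00) higher, both within 2-fold, and Csf1 was at 21.3 against 15.1 CPM. Il34 had 21 UMIs in BM and 6 in GVHD. Microbial sensing had 3 of 20 measured members at least 2-fold higher, 3 at least 2-fold lower and a median log2 ratio of 0.14, with Fpr2, a formyl peptide receptor, 9.24-fold (7.93 to 10.8) higher and Clec4e, which senses microbial glycolipids, 4.59-fold (4.42 to 4.77). Cell-cycle genes had 1 of 22 measured members at least 2-fold higher, 0 at least 2-fold lower and a median log2 ratio of 0.32.

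Immediate-early and stress genes, which also respond to tissue handling, had 1 of 24 measured members at least 2-fold higher, 9 at least 2-fold lower and a median log2 ratio of −0.64, with Hspa1a at 301 CPM in GVHD and 1188 in BM and 41.1 CPM in WT and 36.1 in IL34KO, Hspa1b 3.63-fold (3.55 to 3.70) lower, Atf3 3.18-fold (3.12 to 3.24) lower and Egr2 2.16-fold (2.02 to 2.32) higher. The part of handling in the lists above was not tested.

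Each cell was also thinned to 2000 UMIs and sorted by Ly6c2 and by the sum of H2-Aa, H2-Ab1 and H2-Eb1. Cells with fewer UMIs, 82 in BM and 62 in GVHD, were left out. The mature range, with no Ly6c2 and at least 5 class II UMIs, held 1646 BM cells, 87.6% (86.0 to 89.1), and 1747 GVHD cells, 87.5% (85.9 to 88.9). Here no Ly6c2 means none among the UMIs drawn. At full depth Ly6c2 was in 38.5% of all gated GVHD cells and 8.41% of BM cells, and after thinning in 11.7% and 4.04%. The mature range therefore included GVHD cells that held Ly6c2 at full depth. Its cells were not matched for maturity, and its like share in both libraries does not show like maturity. Cells with at least 1 UMI of Ly6c2 numbered 76 in BM and 233 in GVHD, of which 35 and 168 held exactly 1. Only 5 of them in each library had under 5 class II UMIs, so all cells with Ly6c2 were joined, a choice made after the counts were seen. The remaining 157 BM cells, 8.36% (7.14 to 9.70), and 17 GVHD cells, 0.851% (0.497 to 1.36), had no Ly6c2 and fewer class II UMIs. Near the class II cut, at 4 or 5 UMIs, lay 29 BM and 10 GVHD cells.

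In the mature range 691 of 9814 genes were at least 2-fold higher in GVHD (7.04%) and 979 lower (9.98%). In cells with Ly6c2 the numbers were 590 (6.05%) and 831 (8.52%) of 9755. Resident genes had medians of −1.93 (17 of 25 at least 2-fold lower) and −0.92 (11 of 23 lower, 3 higher). Interferon-γ genes had a median of 1.24 in the mature range, with 18 of 26 at least 2-fold higher, and of 0.70 in cells with Ly6c2, with 6 of 26. For glycolysis and hypoxia genes the medians were 1.30, with 20 of 25 higher, and 0.69, with 9 of 24. Cell-cycle genes had a median of 0.26 in the mature range, with 1 of 22 at least 2-fold higher. In cells with Ly6c2 their median was 0.83, with 10 of 21 higher. Type I interferon genes had medians of −0.38 in the mature range and −1.09 in cells with Ly6c2, where 12 of 22 were at least 2-fold lower. MHC class II genes, some of which defined the ranges, had 1 of 13 at least 2-fold higher and 2 lower in the mature range. In cells with Ly6c2, 0 of 13 were past 2-fold either way. Of the 31 lists, that of monocyte genes, which includes Ly6c2, had the largest difference of medians between the ranges. Its median was 2.00 in the mature range, with 16 of 18 higher, and −0.41 in cells with Ly6c2, with 1 higher and 5 lower of 19. Whether these ranges differ in their ratios was not tested. Ly6c2 itself was higher per UMI in the BM cells that defined the second range (log2 ratio −1.38), so the cells with Ly6c2 were not alike in the 2 libraries.

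**Figure D5:**
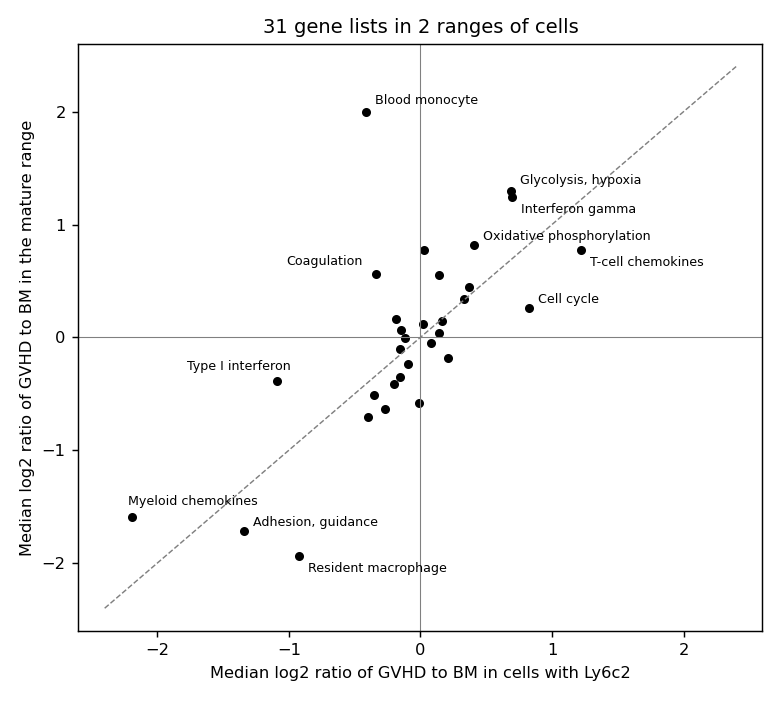
Median log2 ratio of GVHD to BM of 31 gene lists in cells with Ly6c2 (x axis; 76 BM and 233 GVHD cells) and in the mature range (y axis; 1646 and 1747 cells), 1 point per list, with a dashed line at equal medians. Blood monocyte genes lie at −0.41 and 2.00, far above the line, and resident macrophage genes are below 0 on both axes.

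Named genes kept large ratios inside the mature range. The log2 ratio of Nos2 was 7.70, of Arg1 6.11, of Slc7a2 5.999 and of Inhba 5.07. In cells with Ly6c2 the values were 4.99, 3.97, 5.91 and 3.14, from 5, 20, 6 and 27 BM UMIs. Among lower genes Mir99ahg had −8.73 and −5.60, Cd4 −8.87 and −5.29, and Ccl7 −4.49 and −3.64. Chil3 was at 5.97 in the mature range and 1.43 in cells with Ly6c2, and F10 at 4.005 and 0.56.

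The differences were spread over most cells. After thinning to 2000 UMIs, a BM cell held a median of 4 of the 15 lowest genes and 0 of the 15 highest, and a GVHD cell 0 and 3. At least 3 of the lowest genes were found in 72.7% of 1879 BM cells and 0.351% of 1997 GVHD cells. At least 3 of the highest were found in 63.7% of GVHD cells and 0.852% of BM cells. Just 1 BM cell and 0 GVHD cells held 3 of both. The genes were chosen from these cells, so the shares describe how evenly they were spread and support nothing.

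Shares of cells with a UMI ranged widely among the leading genes. Thinned T cells of each library, with at least 3 UMIs of the T-cell genes and at most 1 of the gate genes, gave the background (126 cells in BM and 107 in GVHD, from medians of 6348 and 4025 UMIs). A count of 0 allows, at 3 counts of the total, a share of up to 2.38% of these T cells in BM and 2.80% in GVHD. F10 had a UMI in 48.2% (46.0 to 50.4) of GVHD and 4.52% (3.63 to 5.56) of BM cells, with 2.80% and 0% in T cells and unthinned shares of 86.6% and 10.8%. Cfb was found in 48.4% (46.2 to 50.6) of GVHD and 5.91% (4.88 to 7.07) of BM cells, against 0.935% and 0.794% of T cells, and without thinning in 89.0% and 23.2%. No T-cell share was computed at full depth. Nos2 was in 8.31% (7.14 to 9.61) of GVHD and 0.106% (0.0129 to 0.384) of BM cells. Without thinning Nos2 was in 23.8% and 0.561% of gated cells, and in T cells the thinned shares were 0% and 0%. Arg1 was in 19.5% (17.8 to 21.3) of GVHD and 0.426% (0.184 to 0.837) of BM cells. Without thinning Arg1 was in 42.3% and 1.27% of gated cells, and in T cells the thinned shares were 0% and 5.56%. In BM the T-cell share of Arg1 was above that of the gated cells. Whether T cells hold this RNA themselves was not tested, so the BM share is not read against a background. Of the thinned GVHD cells, 49 held both enzymes, 117 Nos2 alone and 340 Arg1 alone.

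On the BM side Ms4a7 was in 67.1% (64.9 to 69.2) of BM and 7.81% (6.67 to 9.08) of GVHD cells. Without thinning Ms4a7 was in 89.3% and 32.6% of gated cells, and in T cells the thinned shares were 1.59% and 0%. Tanc2 was in 52.1% (49.8 to 54.4) of BM and 4.36% (3.50 to 5.35) of GVHD cells. Without thinning Tanc2 was in 79.6% and 22.7% of gated cells, and in T cells the thinned shares were 14.3% and 5.61%. The GVHD share of Tanc2 in gated cells was not above that in T cells. Whether T cells hold Tanc2 RNA themselves was not tested. Retnla, in contrast, had its UMIs in few cells: 4.68% (3.77 to 5.74) of BM and 0.2504% (0.0813 to 0.583) of GVHD cells. Without thinning Retnla was in 9.64% and 1.12% of gated cells, and in T cells the thinned shares were 0% and 0%. Ccl7 was in 30.97% (28.9 to 33.1) of BM and 3.05% (2.34 to 3.91) of GVHD cells. Without thinning Ccl7 was in 50.7% and 10.5% of gated cells, and in T cells the thinned shares were 1.59% and 0%. P3h2 was in 13.9% (12.4 to 15.6) of BM cells and 0 of 1997 thinned GVHD cells, which on the same measure allows a share of up to 0.150%. Mki67, a proliferation marker, was in 18.3% (16.6 to 20.04) of GVHD and 10.4% (9.03 to 11.8) of BM cells, with T-cell shares of 19.6% and 5.56%. T cells that divide can hold this RNA themselves. Their shares therefore cannot serve as its background, and no order is read from Mki67.

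Of the neutrophil genes, S100a9, Camp and Retnlg appeared in few GVHD cells. Over the whole neutrophil list, 16.2% of gated GVHD cells and 14.9% of BM cells held at least 3 UMIs at full depth. S100a9 had 2096 UMIs in GVHD and 54 in BM. Of the GVHD UMIs, 1416 lay in the 240 shallow cells with no barcode in BM (1461 CPM, against 16.3 CPM in the listed cells). S100a9 was found in 1.10% (0.692 to 1.66) of thinned GVHD and 0.0532% (0.00135 to 0.296) of thinned BM cells. Without thinning S100a9 was in 2.53% and 0.0510% of gated cells, and in T cells the thinned shares were 0% and 0%. Without the cells left out for dendritic cell or neutrophil genes, the log2 ratio of S100a9 was 2.24 in place of 4.73. That of Nos2 was 6.76 in place of 7.37. S100a9 was not a gene of that cut, so cells with S100a9 could stay in. Camp, a neutrophil granule peptide, had 214 UMIs in GVHD, 206 of them in those shallow cells, and 1 in BM. Retnlg had 140 in GVHD, 117 of them there, and 1 in BM.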

How the data were processed

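Single-cell RNA libraries were made from sorted colon cells with 10x Genomics kits and sequenced on a Singular Genomics G4, per the labels. The deposited values are counts of UMIs per gene and barcode. The authors made them with Cell Ranger 7.0.1 against mm10, per the submitters' processing notes, and the file headers name the same version. Filters before deposit are not given in the sources used here.

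From these counts, gated cells were summed per library and expressed as CPM of their total. Genes with at least 5 CPM in 1 library were measured, and 2-fold was the threshold. Ratio intervals are exact conditional binomial and share intervals Clopper-Pearson, both 95%, and a share of 0 is given with the limit of 3 counts of the total. Gene names came from the files. GENCODE M21 held 32235 of 32285 gene identifiers and gave coordinates on mm10. Computations used Python 3.11.15, numpy 2.4.6 and scipy 1.17.1, were tested on simulated data, and took size factors from edgeR 4.0.16 and DESeq2 1.42.0 (R 4.3.3) as alternatives without testing. Doublets were kept. Scrublet scores (scanpy 1.11.5) called 6 BM barcodes and no GVHD barcode by threshold, so the threshold call was not used and removing the 52 and 58 highest-scoring barcodes was an alternative. Thinning drew 2000 UMIs per cell without replacement.

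The cells, lists and tests were chosen with earlier results of these data known. Genes were named by rule: 15 at each end of the log2 ratio computed after adding 5 CPM to both libraries. They needed 50 UMIs and 20 CPM in either library. Genes on the Y chromosome, Xist, Gm and Rik genes, and those for ribosomal proteins, mitochondrial transcripts, haemoglobins, antibodies and T-cell receptors were left out. To these were added up to 4 members per list furthest in the direction of its median, 2 in the other, and fixed marker genes. Also added were the 5 at each end within the mature range. The same was done within the 5 cells per library that held Ly6c2 and under 5 class II UMIs. Lyve1, Ccl2, Maf, Cd274, Isg15, Axl, Timd4, Plaur, Ptgs1, Alox5, Il1b, Tnf, Klf4, Runx3, Ms4a4c, Il7r, Bst2, Siglech, Gsn, Dcn and Col3a1 fell outside the rule and were chosen after their values were seen. Alternatives changed scaling, barcode filters, shared barcodes, gate, expression floor, cell weights, depth, doublets, cycling cells, fold and the class II threshold.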

Additional observations from a re-analysis of the deposited data

Results flagged for a closer look

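Hp, Clec4e, Alox5ap, Arhgap26 and Lpl had ratios of opposite sign in cells with Ly6c2 and in the mature range. The log2 ratio of GVHD to BM of Hp, haptoglobin, was −0.26 in cells with Ly6c2 and 4.73 in the mature range. Clec4e, a glycolipid sensor, had −0.19 and 2.57, and Alox5ap, which serves leukotriene synthesis, −0.31 and 1.73. Arhgap26 had −0.79 and 1.26, and Lpl, lipoprotein lipase, −0.39 and 1.13. These differences between the ranges were not tested, and both ranges come from the same 2 libraries.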

How the results depend on the processing

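The count of genes at least 2-fold higher in GVHD was 401 with a floor of 20 CPM, 2794 with none and 1480 at 1.5-fold. The count of genes at least 2-fold lower in GVHD was 529, 5215 and 1828 in the same order. Under every other alternative run, the counts stayed between 471 and 951 higher and between 853 and 1225 lower. The alternative scalings moved every log2 ratio upward, TMM factors by 0.11 and median of ratios by 0.11, and gave 787 and 781 higher and 856 and 870 lower. With the BM barcodes listed in GVHD kept, 132 of 153 named genes past 2-fold remained past it, and the log2 ratio of Nos2 fell to 3.08. With the GVHD barcodes listed in BM dropped too, 240 GVHD cells remained and 133 of 152 stayed past 2-fold. There the log2 ratio of Ifi44 was −0.43 and that of Slc2a3 0.0938, each of the other direction than with all cells and from 4 and 8 GVHD UMIs. The cause was not tested. Il34 had 0 UMIs there, and its 2.11 is an upper limit set by a floor of 3 counts, so it gives no direction.

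Some list medians near 0 changed sign (IL-1 and inflammasome, lysosome, MHC class II, Fc receptor, prostaglandin, colony stimulating factor, lipid, alternative activation and cell cycle). The largest of these moves was that of the cell-cycle list, from 0.32 to −0.40 when GVHD barcodes listed in BM were dropped too. With no expression floor the median of T-cell chemokines was 0.12 and that of growth factors −1.79, and with a floor of 20 CPM that of myeloid chemokines was −2.73. Among the neutrophil genes, Ltf was within 2-fold (0.60) without the cells left out for dendritic cell or neutrophil genes. Camp, itself a gene of that cut, was at 2.69. Sat1 was within 2-fold under both other scalings (log2 ratios of −0.97 and −0.98) and Il18 after thinning (−0.85). No paired analysis was possible because each group is 1 library and no replicate numbers pair the libraries. Each ratio compares these 2 libraries and has no replicate check. Genes with few UMIs in 1 library, such as Mir99ahg in GVHD and Nos2 in BM, are limited by depth.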
